A study of Mus musculus with 2 samples.

Results

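Phase II conjugation is the step of liver metabolism in which a polar group is joined to a hormone, bile pigment, drug or food chemical so that it can leave in bile or urine. The genes of its 3 largest enzyme families were described here in mouse liver RNA: UDP-glucuronosyltransferases (UGT), cytosolic sulfotransferases (SULT) and soluble glutathione S-transferases (GST). Members were taken by symbol, as Ugt1a, Ugt2a, Ugt2b and Ugt3a genes, numbered Sult genes, and Gst genes of the alpha, kappa, mu, omega, pi, theta and zeta classes. This gave 59 of the 22609 genes counted, with 20 UGT, 18 SULT and 21 GST genes.

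UGT enzymes sit in the endoplasmic reticulum and mostly transfer glucuronic acid from UDP-glucuronate, while SULT enzymes of the cytosol transfer sulfate from the donor PAPS. GST enzymes join glutathione to electrophiles, such as products of lipid peroxidation, and some have other duties such as amino acid breakdown. In liver these families are known to respond to xenobiotic-sensing receptors and, in mice, several members differ between the sexes under the pattern of growth hormone release.

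The study asked how loss of Lrg1, which encodes a secreted leucine-rich glycoprotein, affects gene expression in liver. Both groups were male C57BL/6 mice given a diet with 45% of calories from fat for 16 weeks from 8 weeks of age, and they differ by label in genotype: wild type (C57BL/6J in the protocol) or whole-body Lrg1 knockout. There was 1 library per genotype, and the labels do not state whether it held RNA of a single mouse or a pool. With no replicates there is no test, and every difference below is between 2 libraries and not between genotypes.

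Reads in genes numbered 23311906 for wild type and 18738397 for the library labelled Lrg1 knockout. Levels are given as reads and as CPM, reads scaled to a common library size with TMM (trimmed mean of M-values, the method that sets the effective size). All 13 hepatocyte markers had reads in both libraries, with a median log2 ratio of -0.11 for the library labelled knockout against wild type. Lrg1 itself was counted with 26958 reads for wild type and 17572 reads under the knockout label (log2 ratio -0.39), so Lrg1 reads were not absent from the library labelled knockout. Counts per gene do not show whether those reads lie inside the deleted part. The intervals below are exact 95% intervals and cover counting error only, and without molecular identifiers the reads cannot be taken as independent molecules. A member is called level within counting error where the interval of its ratio includes 1.

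Of the 59 members, 38 had at least 50 reads summed over both libraries and are called measured; ratios are given for these only. The 21 others comprised 9 without a read and 12 with 1 to 40 reads. Just inside the minimum were Ugt2b37 with 24 wild-type reads against 35 in the other library, and Gsta2 with 32 and 37. Just outside it were Gstp2 with 3 and 37 reads and Gsta1 with 8 and 28.

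Several members are close copies, which decides what a count of 50-base reads can resolve, so the sequences behind the main results are shown first. Gstp1 and Gstp2 are neighbours on chromosome 19, differ at 12 of 630 coding bases and were both counted higher in the library labelled knockout. Their coding bases 1 to 90 follow (GENCODE M21 transcripts, GRCm38), with the 6 differing bases in capitals.
Gstp1: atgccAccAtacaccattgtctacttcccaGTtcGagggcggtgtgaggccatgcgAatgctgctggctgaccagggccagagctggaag
Gstp2: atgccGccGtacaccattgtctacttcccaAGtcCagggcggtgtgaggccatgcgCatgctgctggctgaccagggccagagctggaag

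Only 37.7% of the 50-base windows of the Gstp1 transcript and 27.4% of those of Gstp2 occur in no other annotated gene. Ugt2b38 and Ugt2b5 differ at 47 of 1590 coding bases, yet their values went apart, as described below. Coding bases 1432 to 1521, the stretch of 90 bases with the most differences, are shown with those 10 bases in capitals.
Ugt2b38: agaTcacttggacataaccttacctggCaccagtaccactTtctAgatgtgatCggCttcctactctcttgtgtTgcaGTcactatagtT
Ugt2b5: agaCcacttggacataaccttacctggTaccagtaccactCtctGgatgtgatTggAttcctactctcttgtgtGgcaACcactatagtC

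Ugt1a genes are a special case, because each has its own first exon and promoter while the exons that follow are common to all. The 6 Ugt1a transcripts with 5 exons shared 1311 bases from the start of exon 2. The sequences across that junction are shown for 1 member that was only modestly lower and 2 that were far lower, with the shared exon in capitals.
Ugt1a1: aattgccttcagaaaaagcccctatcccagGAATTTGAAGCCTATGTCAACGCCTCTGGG
Ugt1a5: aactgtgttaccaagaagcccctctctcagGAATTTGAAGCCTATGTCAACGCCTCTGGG
Ugt1a9: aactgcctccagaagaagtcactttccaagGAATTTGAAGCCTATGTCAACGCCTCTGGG

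A read inside the capitals cannot be given to 1 Ugt1a gene, and a read before them can where the first exons differ. Of the 50-base windows, 36.0% in Ugt1a5, 38.0% in Ugt1a9, 19.8% in Ugt1a1, 19.3% in Ugt1a6b and 0 in Ugt1a6a were found in no other gene. Reads that fell in more than 1 gene were kept out of the gene counts, at 62742 lines for wild type and 51451 for the other library. The sources used here do not give how the counting treated the shared exons. Levels per kilobase are therefore not given for Ugt1a genes, and sums, shares and ranks of the UGT family hold their reads only as counted.

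UGT genes went in both directions, and their sum differed little between the libraries. The family summed to 74541 wild-type reads against 68885 in the library labelled Lrg1 knockout, a ratio of 1.09 after scaling (1.07 to 1.10). Of 15 measured members 7 had a log2 ratio above 0 and 8 below, with a median of -0.00052, beside -0.01 over all 11411 measured genes, of which 48.4% were above 0. Ugt2b36 lay so near 0 that 4 other ways of scaling or thinning put it on the other side. There was 1 member at least 2-fold higher and there were 2 at least 2-fold lower. Over all measured genes 1.71% were 2-fold higher and 2.49% 2-fold lower, 4.2% in all. The 3 of 15 UGT members are a description only, with so few genes and no spread between mice.

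All 5 measured Ugt1a genes were lower in the library labelled knockout, beside 51.6% of all measured genes. Ugt1a5 had 329 wild-type reads (14.5 CPM, interval 13.0 to 16.2) against 40 in the other (2.07 CPM, 1.48 to 2.82). The log2 ratio was -2.79, a level 5.03 to 9.98 times higher in wild type by its interval, and 0.210% of measured genes lay below it. Ugt1a9, whose enzyme glucuronidates phenols, followed with 716 and 193 reads, 3.16-fold higher in wild type (2.69 to 3.72).

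The other measured Ugt1a genes differed much less. Ugt1a1, which encodes the bilirubin-conjugating enzyme of liver, had 5577 and 3767 reads, a log2 ratio of -0.33. Ugt1a6a (687 and 452 reads, -0.37) and Ugt1a6b (807 and 536 reads, -0.36), which act on small phenols, have 98.4% coding identity, so the division of reads between them is uncertain. Summed, these copies had 1494 and 988 reads, a ratio of 0.777 (0.716 to 0.842). Ugt1a10, Ugt1a2 and Ugt1a7c had 2 to 8 reads per library.

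As counted, genes of the Ugt1a cluster thus had unlike ratios, and no ratio of the first exons alone was taken. In the order of the cluster on chromosome 1, Ugt1a9 and Ugt1a5 were not adjacent: Ugt1a7c, Ugt1a6b and Ugt1a6a lie between them, and the latter 2 were near -0.36.

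**Figure D1:**
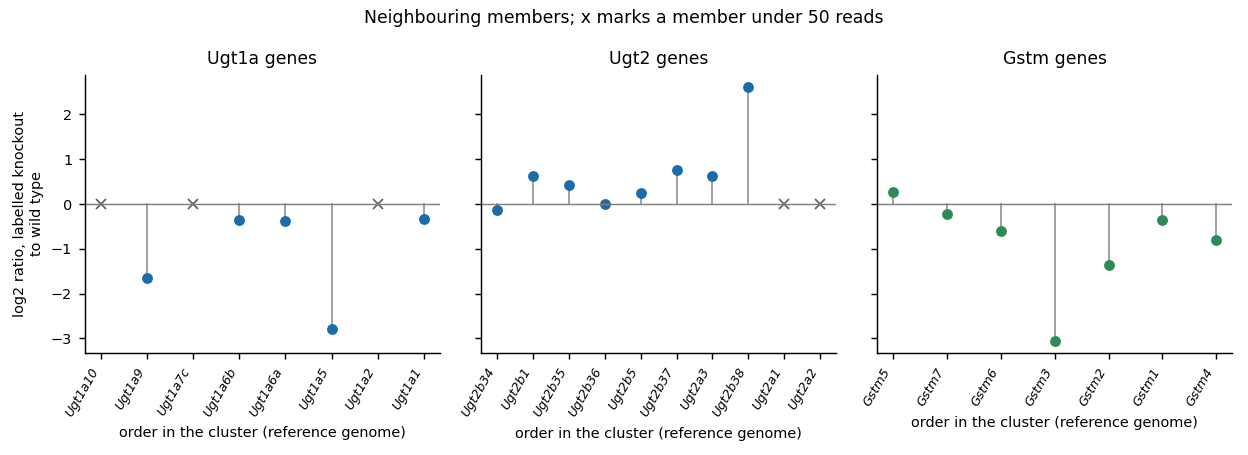
Log2 ratio of the library labelled Lrg1 knockout to wild type (vertical axis) for members of 3 gene clusters in the order of the reference genome (horizontal axis). Ugt1a5, Ugt1a9 and the adjacent Gstm3 and Gstm2 lie below -1, while the other measured Ugt1a and Gstm genes lie nearer 0. Ugt2b38 stands at 2.61 while the other measured Ugt2 genes lie nearer 0. Members under 50 reads have no ratio and are drawn as an x at 0.

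UGT2 enzymes, which act on steroids, bile acids and drugs, held most of the family's reads. The 7 Ugt2b genes had 49605 wild-type reads together against 48310 under the knockout label, with a ratio of 1.14 (1.13 to 1.16), with 5 members above 0 and 2 below. The sparsely counted Ugt2b38 stood apart from them. It had 26 wild-type reads (1.15 CPM, 0.750 to 1.68) against 137 in the other library (7.10 CPM, 5.96 to 8.40), 6.19-fold higher (4.05 to 9.81). Its log2 ratio of 2.61 was exceeded by 0.0789% of measured genes.

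Ugt2b5, the closest copy of Ugt2b38 with 97.0% coding identity, had 10464 and 10483 reads and a log2 ratio of 0.23. Since Ugt2b5 was so much more abundant, the 2-fold difference of Ugt2b38 disappears in the sum of Ugt2b5, Ugt2b37 and Ugt2b38, at 10514 and 10655 reads with a ratio of 1.19 (1.16 to 1.22). Of the 50-base windows, 62.6% in Ugt2b38 and 58.3% in Ugt2b5 were found in no other gene.

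Among abundant members, Ugt2b1 and Ugt2a3 had the highest ratios. Ugt2b1 had 9125 wild-type reads (403 CPM) against 12019 in the library labelled knockout (623 CPM), 1.55-fold higher (1.51 to 1.59). All of its windows were found in no other gene. Ugt2a3 had 3777 and 4980 reads, also 1.55-fold higher (1.48 to 1.62). The other well counted Ugt2b genes lay nearer 0. Ugt2b35 was at a log2 ratio of 0.42 (3937 and 4471 reads). Ugt2b34 was at -0.14 with 12671 and 9798 reads (559 and 508 CPM). Ugt2b36, at 13358 and 11367 reads (590 and 589 CPM), had a log2 ratio of -0.00052 and was level within counting error. Ugt2a1 and Ugt2a2 had no counted reads. They overlap each other and only 2.98% and 5.46% of their windows were found in no other gene. The count of 0 thus rests on a small part of each transcript and limits their level only loosely.

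Ugt3a enzymes are known to use UDP sugars other than UDP-glucuronate. Ugt3a2 had 11087 and 8787 reads (log2 ratio -0.10) and Ugt3a1 1933 and 1808 (0.14). Per kilobase of full transcript, the level of Ugt2b36 was 312 CPM in both libraries, the highest of the UGT genes outside the Ugt1a group. Ugt2b5 followed at 249 and 293 CPM per kb. Only uniquely aligned reads were counted, and 99.7% of Ugt2b36 windows but 58.3% of Ugt2b5 windows were found in no other gene. The order of Ugt2b36 and Ugt2b5 is therefore uncertain. The next places differed between the libraries: Ugt3a2 (210) and Ugt2b34 (183) stood above Ugt2b1 (157) in wild type, while Ugt2b1 (242) stood above Ugt3a2 (196) and Ugt2b34 (167) in the library labelled knockout.

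**Figure D2:**
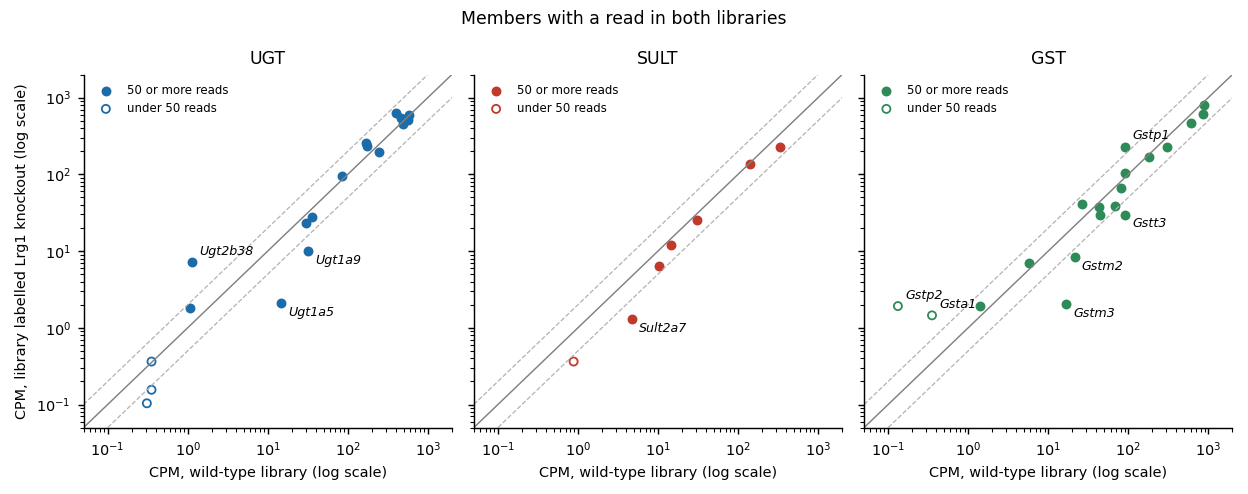
CPM in the wild-type library (horizontal, log scale) against CPM in the library labelled Lrg1 knockout (vertical, log scale) for the 44 members with reads in both libraries. The solid line marks equal levels and dashed lines 2-fold differences; open circles have under 50 reads. Named points above the upper dashed line are Ugt2b38, Gstp1, Gstp2 and Gsta1.

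All 6 measured SULT genes had lower values in the library labelled Lrg1 knockout, though Sult1d1 turned just above 0 when libraries were scaled by total count. Over all measured genes 51.6% had a log2 ratio below 0. The family summed to 12266 wild-type reads against 7935 in the other library, a ratio of 0.760 (0.739 to 0.782), and the median log2 ratio of the measured members was -0.41. Only Sult2a7 was at least 2-fold apart, 1 of 6 beside 4.2% of all measured genes. Under the minimum were 12 of the 18 family members.

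Sult1a1, the main phenol sulfotransferase, held 62.4% of the family's wild-type reads and 56.0% under the knockout label. It had 7651 reads (338 CPM, 330 to 345) and 4444 (230 CPM, 224 to 237), a log2 ratio of -0.55. Sult1d1, which acts on catecholamines, had 3191 and 2607 reads (141 and 135 CPM) and was level within counting error. Its share of SULT reads was 26.0% (25.2 to 26.8) for wild type against 32.9% (31.8 to 33.9) in the other library. Per kilobase of transcript, Sult1a1 stood at 262 and 179 CPM and Sult1d1 at 58.2 and 55.9.

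Sult1b1, which sulfates thyroid hormones and phenols, had 699 and 495 reads (log2 ratio -0.27) and Sult5a1 331 and 234 (-0.27). Sult1c2 was lower at -0.72 with 236 and 122 reads. Sult1e1, the oestrogen sulfotransferase, had 20 and 7 reads, too few for a ratio. No reads were counted for Sult1c1, Sult2b1 and Sult4a1, and 1 read for Sult6b1.

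The hydroxysteroid sulfotransferases of the Sult2a group were counted mostly in the wild-type library. Sult2a7 had 106 reads there (4.68 CPM, 3.83 to 5.66) against 25 in the library labelled knockout (1.30 CPM, 0.839 to 1.91), 3.61-fold higher in wild type (2.32 to 5.83). Every 50-base window of Sult2a7 was its own. Sult2a1, Sult2a2, Sult2a5 and Sult2a6 had 4, 5, 1 and 1 wild-type reads and none under the knockout label, while Sult2a3 and Sult2a4 had none in either. Sult3a1, which sulfates amines, had 21 wild-type reads (0.927 CPM, 0.574 to 1.42) and none under the knockout label. That count of 0 allows up to 3 reads, 0.156 CPM, as a one-sided limit, or 0.191 CPM as the upper end of the exact 95% interval. Sult3a1 and Sult2a1 are known as female-predominant genes of mouse liver. Both libraries are labelled male.

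**Figure D3:**
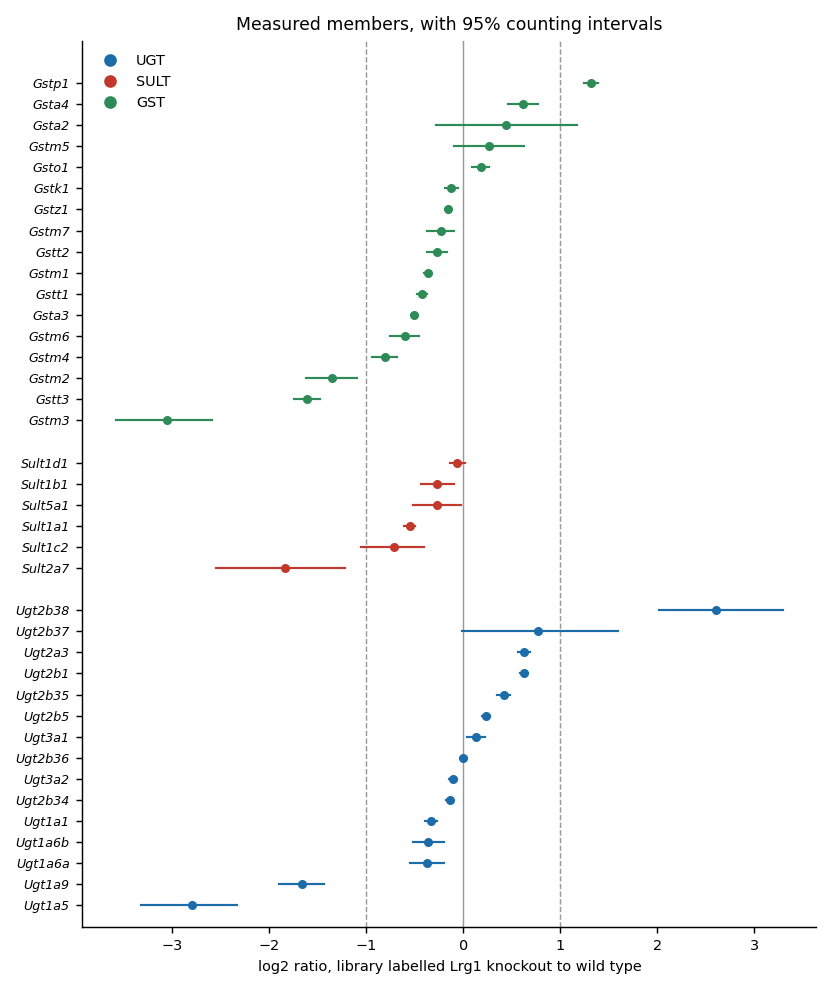
Log2 ratio of the library labelled Lrg1 knockout to wild type for the 38 measured members, by family; points are ratios and bars exact 95% counting intervals. Dashed lines mark 2-fold differences: 8 members lie beyond them, Ugt2b38 and Gstp1 on the higher side and 6 on the lower side.

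GST genes were mostly lower in the library labelled Lrg1 knockout, with Gstp1 as the marked exception. The family summed to 77347 wild-type reads against 55128 in the other library, a ratio of 0.837 (0.828 to 0.846). Of 17 measured members 12 had a log2 ratio below 0 and 5 above, with a median of -0.27. Over all measured genes 51.6% were below 0, with a median of -0.01. There were 3 at least 2-fold lower (Gstm3, Gstt3 and Gstm2) and 1 at least 2-fold higher, together 23.5% of the 17 beside 4.2% of all measured genes.

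Gstp1, a pi-class enzyme that is known as male-predominant in mouse liver, had 2085 wild-type reads (92.0 CPM, 88.1 to 96.1). The library labelled knockout had 4419 (229 CPM, 222 to 236), 2.49-fold higher (2.36 to 2.62). Its share of GST reads was 2.70% (2.58 to 2.81) for wild type against 8.02% (7.79 to 8.25) in the other library. Gstp2 is too sparse for a ratio, at 3 and 37 reads. Both copies were counted higher in the same library, and their sum, 2088 against 4456 reads, gave a ratio of 2.51 (2.38 to 2.64). The sum holds uniquely aligned reads only, and windows of both genes also occur in the pseudogene Gstp-ps.

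The 250 bases before the start of each Gstp gene are shown because the copies were higher together; they come from RefSeq, build GRCm38.p6, whereas the counts were made on mm9. Gstp1 lies at chr19:4037913-4038162 and Gstp2 at chr19:4042222-4042471, both on the minus strand. Capitals mark matches on either strand to TGANTCA, the site of AP-1 factors, and to GCGTG, the core bound by the aryl hydrocarbon receptor (AHR).
Gstp1: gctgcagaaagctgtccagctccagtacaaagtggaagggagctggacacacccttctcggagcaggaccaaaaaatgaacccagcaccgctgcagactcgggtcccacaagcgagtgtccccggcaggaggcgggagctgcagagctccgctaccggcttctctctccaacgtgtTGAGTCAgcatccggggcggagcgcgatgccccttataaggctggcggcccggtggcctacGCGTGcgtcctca
Gstp2: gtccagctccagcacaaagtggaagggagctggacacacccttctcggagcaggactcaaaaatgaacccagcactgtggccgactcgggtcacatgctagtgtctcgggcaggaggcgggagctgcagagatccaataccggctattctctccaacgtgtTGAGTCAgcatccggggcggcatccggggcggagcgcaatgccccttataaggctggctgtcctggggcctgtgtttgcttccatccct

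The upstream sequences were 78.5% identical. TGANTCA was present in both and occurs in 6.75% of 32851 RefSeq promoter windows of this length; among 61 windows of 51 members it was found in 11. GCGTG was found in that of Gstp1 and not in that of Gstp2, and occurs in 28.2% of all windows. These motifs do not overlap each other, and a match describes letters, not binding.

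Other members with TGANTCA were Gstm5, Sult1c1, Sult2b1, Ugt1a6a, Ugt2a2, Ugt2b1, Ugt2b35, Ugt2b37 and Ugt2b38. The upstream windows of Ugt2b38 and Ugt2b5 were 81.5% identical. GCGTG was found in 9 member windows, those of Gsta2, Gstm1, Gstm5, Gstp1, Sult1b1, Sult1d1, Sult2b1 and Ugt1a5, 1 of which has a second window. TGACNNNGC, a form of the core of the antioxidant response element, was on either strand in 3 member windows (Gsta3, Gstm5 and Gstm7) and in 10.2% of all windows. Other forms of that element were not searched. Its absence from other member windows, those of Gstp1 and Gstp2 included, is therefore not shown. The paired STAT half-site TTCNNNGAA was in 4 (Gsta1, Gstm6, Sult3a1 and Ugt1a6a) and in 7.02% of all.

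Mu-class GST genes form a cluster on chromosome 3 and 6 of 7 were lower in the library labelled knockout, beside 51.6% of all measured genes. The most different was Gstm3, with 383 wild-type reads (16.9 CPM, 15.3 to 18.7) against 39 in the other library (2.02 CPM, 1.44 to 2.76), 8.36-fold higher in wild type (6.00 to 11.9). Its log2 ratio of -3.05 was the lowest of all 38 measured members, and 0.175% of measured genes lay below it. Gstm2, the next gene in the cluster, had 484 and 161 reads, 2.56-fold higher in wild type (2.14 to 3.08).

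Gstm1, the abundant mu-class enzyme of liver, was far less different, with 13673 and 9040 reads (604 and 469 CPM, log2 ratio -0.36). Its coding sequence is 89.4% identical to that of Gstm3, and 71.2% of Gstm3 windows were found in no other gene. Gstm4 was at -0.81 (1541 and 749 reads) and Gstm6 at -0.60 (1005 and 563 reads). Gstm7 was at -0.23 (986 and 715 reads). Gstm5, at the edge of the cluster, was at 0.26 on 131 and 134 reads, level within counting error. Together the 7 genes had 18203 and 11401 reads, with a ratio of 0.736 (0.719 to 0.753).

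Theta-class genes, whose enzymes act on small halogenated compounds and sulfate esters, were also lower. Gstt3 had 2059 wild-type reads (90.9 CPM, 87.0 to 94.9) against 576 in the library labelled knockout (29.9 CPM, 27.5 to 32.4), 3.04-fold higher in wild type (2.77 to 3.34). Of its windows 74.0% were its own, and the rest occur in the annotated gene Gm20441, which overlaps it on the same strand. Its neighbour Gstt1 had 6885 and 4368 reads (log2 ratio -0.42) and Gstt2 1827 and 1289 (-0.27), while Gstt4 had no reads.

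Alpha-class members went in both directions. Gsta3, which in mice conjugates the aflatoxin epoxide, had 19546 wild-type reads (863 CPM) against 11748 in the library labelled knockout (609 CPM), a log2 ratio of -0.50. All of its windows were found in no other gene. Gsta4, which clears the lipid peroxidation product hydroxynonenal, was 1.53-fold higher (1.37 to 1.70) with 601 and 783 reads. Gsta1 and Gsta2 have 97.6% coding identity and together had 40 and 65 reads, with a ratio of 1.91 (1.27 to 2.91), whereas Gsta2 alone (0.823 to 2.25) was level within counting error.

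The remaining classes differed little. Gstz1, which acts as maleylacetoacetate isomerase in tyrosine breakdown, had the most reads of the family, 19920 and 15236 (log2 ratio -0.15). Gstk1 of mitochondria and peroxisomes was at -0.12 (4111 and 3211 reads), and Gsto1, a thiol transferase, at 0.18 (2067 and 1995 reads). Gsto2 had no reads. Per kilobase of full transcript, Gsta3 had the highest level of the family in wild type at 592 CPM and Gstz1 the next at 531. This order turned in the library labelled knockout, where Gstz1 was at 477 and Gsta3 at 418. Gstm1 followed at 468 and 364 CPM per kb. Only 76.9% of Gstm1 windows were found in no other gene, against 100% for Gsta3 and 95.1% for Gstz1. The place of Gstm1 is therefore uncertain, since only uniquely aligned reads were counted.

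**Figure D4:**
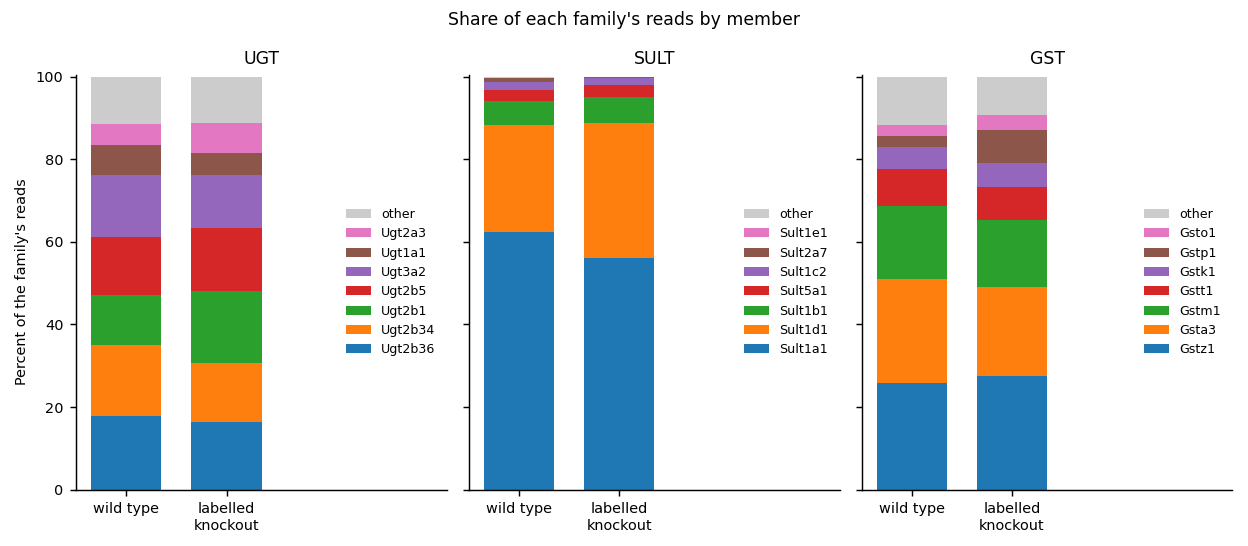
Percent of each family's reads held by its 7 most counted members and by all others together (vertical axis, from 0 to 100) in the wild-type library and the library labelled Lrg1 knockout. Gstp1 widens from 2.70% to 8.02% of GST reads, Sult1d1 from 26.0% to 32.9% of SULT reads and Ugt2b1 from 12.2% to 17.4% of UGT reads.

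Of the 8 members at least 2-fold apart 2, Gstm2 and Sult2a7, had at least 90% of their windows in no other gene. Ranked by reads summed over both libraries, none of the 8 was among the 4 most counted of its family, while by the library labelled knockout alone Gstp1 was. By summed reads the leading 4 held 61.2% of wild-type UGT reads (Ugt2b36, Ugt2b34, Ugt2b1 and Ugt2b5) against 63.4% in the other library. Ranked by wild type alone Ugt3a2 replaced Ugt2b1, and the shares were 63.8% and 58.7%, so the direction of this comparison turns with the ranking. The leading 4 SULT genes held 96.8% and 98.0% under every ranking. The leading 4 GST genes held 77.6% and 73.3% by summed reads or wild type, and 71.4% and 73.4% by the library labelled knockout, where Gstp1 replaced Gstt1. Of the 38 measured members 5 were level within counting error, and the 3 families together held 0.704% of reads in genes in both libraries (164154 and 131948 reads).

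Over all measured genes 48.4% had a log2 ratio above 0, 51.6% were below, and 4.2% were at least 2-fold apart. The lists for donor supply held no measured gene 2-fold apart, which in lists this short is near that share. Of 6 genes for UDP-glucuronate supply and use 2 were above 0 and 4 below, with none 2-fold apart and a median log2 ratio of -0.17. Among them Ugdh, which makes UDP-glucuronate, was at -0.36 and Entpd5, a nucleotide diphosphatase, at -0.22. Slc35d2, a nucleotide sugar transporter, was at 0.20 and Gusb, which cleaves glucuronides, at -0.19.

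Of 10 genes for sulfate and PAPS supply 4 were above 0 and 6 below, with none 2-fold apart and a median of -0.10. The sulfate transporters Slc26a2 and Slc26a1 were at -0.68 and -0.55, the PAPS synthase Papss1 at -0.64 and the PAPS transporter Slc35b3 at 0.51. Papss2, the other synthase and the more counted one with 2859 and 2435 reads, was at 0.00077.

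Genes of the glutathione cycle lay near 0, with 17 of 20 measured, 6 above 0, 11 below and none 2-fold apart, and a median of -0.14. Of the 17, 9 had an interval below 1, 4 an interval above, and 4 were level within counting error. The members farthest from 0 were Chac1, which degrades glutathione (-0.29), the synthetase Gss (-0.28), the reductase Gsr (0.27) and the glutaredoxin Glrx (-0.26).

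Conjugating enzymes outside the 3 families had a median of -0.04 over 17 measured genes, 4 above 0 and 13 below. Mgst3, a membrane-bound glutathione transferase, was the only one 2-fold lower, with 349 and 103 reads (-1.52). The arsenic methyltransferase As3mt was at -0.72, the prostaglandin D synthase Hpgds, itself of GST fold, at -0.71, and the thiopurine methyltransferase Tpmt at -0.69. The very abundant Mgst1 was at -0.0040 with 97551 and 82813 reads.

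Transporters of conjugates and their substrates had a median of -0.12, with 4 of 12 above 0 and 8 below. Abcb1a, a drug efflux pump, was at -2.01 on 54 and 11 reads and Slco1a4, an organic anion importer, at -1.43. Slc22a7 was at 0.86 and Slco1a1 at 0.81, both importers of organic anions.

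Of 19 measured transcription factors and partners known to act on these families 7 were above 0 and 12 below, with a median of -0.19. At least 2-fold lower, beside 2.49% of all measured genes, were 2 of the 19. These were Maff (-2.03), a small Maf partner of NRF2, and Bcl6 (-1.12), a repressor of sex-biased liver genes. Onecut1 was at 0.98 and Foxa1 at 0.75, both hepatocyte factors.

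Targets of the xenobiotic and stress sensors outside the families held a few far lower genes beside many near 0. Of all measured genes 51.6% were below 0 and 2.49% at least 2-fold lower. Of 4 measured AHR targets 3 were below 0, 1 of them level within counting error, and 2 were at least 2-fold lower. These were Nqo1 (-1.38) and Tiparp (-1.15), while Cyp1a2 was at 0.44 and Cyp1b1 at -0.18. Of 7 measured targets of the receptors CAR and PXR 5 were below 0, 1 of them level within counting error. Cyp2b10 was at -2.52 on 84 and 12 reads, Por at -0.92, Alas1 at -0.42 and Ces2a at 0.35. The abundant Cyp3a11 was at -0.0033 on 31424 and 26689 reads, and Cyp2c29 was at 0.20.

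Of 14 measured NRF2 targets 10 were below 0, but 7 of the 14 were level within counting error, 6 had an interval below 1 and 1 an interval above. Nqo1, which stands in the AHR list too, was the only one 2-fold lower. The pentose phosphate enzymes Pgd (-0.73), Tkt (-0.47) and Taldo1 (-0.45) followed, and the median of the list was -0.11.

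Sex-biased liver genes outside the families are given because several members are known to be sex-biased. All 15 male-biased genes of a list were above 0 and 9 at least 2-fold higher, around a median of 1.12. Over all measured genes 48.4% were above 0 and 1.71% at least 2-fold higher. Of 12 female-biased genes 7 were measured, 6 of them below 0 and 5 at least 2-fold lower, around a median of -3.26. Over all measured genes 51.6% were below 0 and 2.49% at least 2-fold lower. Both lists were chosen with earlier results of these data known. Hsd3b5, Mup1 and Selenbp2 were at 3.70, 2.35 and 2.20, and Moxd1, with 0 and 59 reads, was at least 23.1-fold higher when wild type is set to 3 reads; with it at that bound the median was again 1.12. Cyp2c69, Cyp2a4, Cyp2b13 and Cyp2b9 were at -3.95, -3.64, -3.42 and -3.26. Gstp1 stood on the side of the male-biased list and Sult2a7 on that of the female-biased list. Sult3a1, with 21 wild-type reads and 0 under the knockout label, had too few reads for a ratio. Other members were not sorted by sex bias. The part of sex-biased expression in the members' values was not tested.

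**Figure D5:**
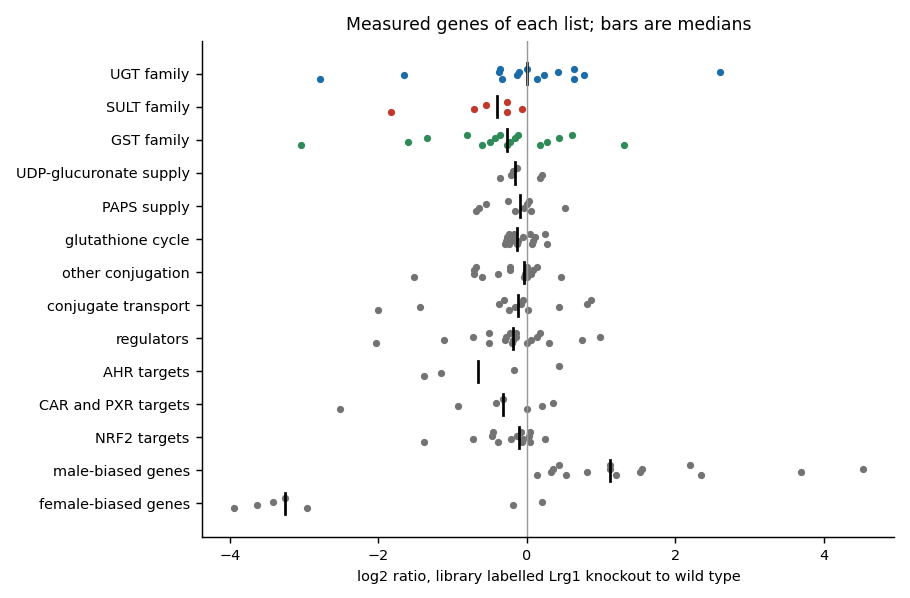
Log2 ratio of the library labelled Lrg1 knockout to wild type (horizontal axis) for every measured gene of the 3 families and of the pathway lists; each point is a gene and each bar a median. Medians lie between -0.66 and -0.00052 except for male-biased genes at 1.12 and female-biased genes at -3.26. Moxd1 is drawn at 4.53, its value with wild type set to 3 reads.

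Hepatocyte zone and cell type lists are given beside these values, since several members are known to be expressed unevenly across the lobule. Over all measured genes 48.4% were above 0 and 51.6% below. Pericentral genes had a median of -0.13 (3 of 12 above 0; Rhbg -1.14, Lgr5 0.47, Cyp1a2 0.44 and Oat -0.34) and periportal genes -0.24 (3 of 12 above 0; Sds -0.88, Pck1 0.58, Cps1 -0.54 and Cyp2f2 -0.40). Among 13 hepatocyte markers 3 were above 0 and 10 below, with Tat at 0.66, Cps1 at -0.54, Hnf4a at -0.51 and Tdo2 at -0.34.

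Sinusoidal endothelial markers were above 0 in 9 of 10 cases, with 268 and 393 CPM summed. Dnase1l3 was at 1.04, Kdr had 517 and 882 reads and was also just past 2-fold, Fcgr2b was at 0.79 and Clec4g at 0.62. Kupffer cell markers were below 0 in 9 of 10 cases, with 657 and 532 CPM summed. The scavenger receptor Marco was at -2.04 (1125 and 233 reads), Timd4 at -0.77, Adgre1 at -0.74 and C1qc at -0.41.

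Stellate markers summed to 414 CPM in both libraries, but Dcn alone, at 0.02, held 4894 and 4238 reads of that sum and the members went apart, 7 above 0 and 3 below. Col1a1 was at -1.07 and Col3a1 at -0.56, both collagens, while Ngfr was at 0.78 and Rgs5 at 0.39. Cholangiocyte markers summed to 43.2 and 42.0 CPM, with Sox9 at 0.08 and Spp1 at -0.06. Erythroid markers summed to 113 and 138 CPM, with Klf1 at 0.67 and Alas2 at 0.28. B cell markers summed to 3.53 and 4.41 CPM, with Cd79b at -0.16 and Cd22 at 0.10, and T and NK cell markers, none of them measured, to 1.55 and 3.01 CPM. In the erythroid list 2 of 5 genes had no wild-type reads and 1 had none in the other library, and in the other cell type lists no gene was at 0. The part of cell composition in the members' values was not tested, and in whole tissue fewer cells of a type and less RNA per cell cannot be told apart.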

How the data were processed

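Liver RNA of 2 mouse groups was measured in 2 libraries, 1 per genotype, from about 500 ng of RNA with a poly(A) stranded kit and single-end reads of 50 bases, per the labels' protocols. The authors deposited whole-number counts of reads for each gene symbol, not normalized. Per the submitters' processing notes bcl2fastq, TopHat2, HTSeq and mm9 were used; versions, annotation and strand setting were not given in the sources used here, so measured members that overlap a gene on the opposite strand (among them Sult1a1 with Sgf29, Gstz1 with Pomt2, Gsto1 with Cfap43) are uncertain.

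Lines that name no gene (14.0% and 14.4% of unique alignments outside genes, 0.231% and 0.234% in more than 1 gene) stayed out of library sizes. Counts were scaled by TMM in edgeR 4.0.16 (R 4.3.3), with factors 0.972 and 1.03, so that 1 read is worth 0.0441 and 0.0519 CPM. Log2 ratios used a prior count of 0.5; ratios have exact Clopper-Pearson and CPM exact Poisson intervals. Differences of 2-fold were counted on the log2 scale. Transcript lengths, 50-base windows shared between genes and cluster order came from GENCODE M21 (GRCm38), with 1 transcript per gene; identity was taken over Biopython 1.88 global alignments. Of 59 members 51 had a RefSeq promoter entry. The steps were tested on simulated data.

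Named were all members, Lrg1 and, in each list, the 4 measured genes farthest from 0; Mgst1, Papss2, Cyp3a11, Cyp2c29 and Dcn were added after their values were seen. Members and lists were chosen with earlier results of these data known. Alternatives were other scalings (one with DESeq2 1.42.0), thinning, prior count, minimum and threshold; Python 3.11.15 was used.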

Additional observations from a re-analysis of the deposited data

Results flagged for a closer look

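Alignments that were not unique are recorded apart from the counts of any gene. They made up 50.3% of the lines for wild type and 58.0% under the knockout label. Reads that fell in more than 1 gene were 0.231% and 0.234% of unique alignments. Both drew attention because no comparison above uses them. The number of such reads that belong to UGT, SULT or GST genes was not analysed here.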

How the results depend on the processing

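Over 5 alternatives of scaling, thinning and prior count, 0 of the 8 members at least 2-fold apart crossed that threshold or changed direction, and no further member reached it. Of 190 such values for the 38 measured members 164 stayed inside the counting interval. Scaling by total count moved every ratio up by about 0.08 (log2), which turned Sult1d1 and Ugt2b36 above 0.

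The UGT median has no settled sign: it was 0.082 under total-count scaling, 0.068 without Ugt1a5, -0.10 from 200 reads, and, in alternatives chosen after seeing the data, 0.14 among 7 members with at least 90% of windows in no other gene and -0.065 with copies summed. The summed ratios under total-count scaling were 1.15 for UGT, 0.805 for SULT and 0.887 for GST. Without the most counted member they were 1.10 (without Ugt2b36), 0.889 (without Sult1a1) and 0.816 (without Gstz1).

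Counts of members 2-fold apart follow from the threshold and filter. At 1.5-fold they were 6 for UGT, 2 for SULT and 7 for GST, and at 3-fold 2 for GST. From 200 reads 0 SULT members were left 2-fold apart, since Sult2a7 is below that minimum, and UGT had 2, both lower, since Ugt2b38 (163 reads) is below it too. Among members with at least 90% of windows in no other gene there were 0 for UGT and 1 for GST, Gstm2. Over all genes 267 were 2-fold apart from 200 reads and 2625 without a minimum, where 479 were with 50. No paired analysis was possible because each group has 1 library. For the same reason no library could be left out.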
